A study of Mus musculus with 4 samples.

Results

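Germline genes are read in germ cells and are silent in most somatic cells. The 10 genes described here are Dazl, Sycp1, Sycp3, Mael, Tdrd1, Ddx4, Mov10l1, Hormad1, Slc25a31 and Tex19, the last being the array's name for Tex19.1. They were chosen by name from the array annotation. The annotation names 19958 genes, and these 10 carry 306 of its 520554 probes. DNA methylation had been measured in cultured mouse leukaemic cells by MeDIP-chip, in which an antibody to methylated cytosine pulls down DNA that is then hybridised beside unselected input DNA. The 4 groups had 1 array each: KO cells with decitabine, WT cells with decitabine, untreated KO cells and untreated WT cells. Decitabine, a nucleoside analogue, is built into DNA, where DNA methyltransferases become bound to it, and treated cells received 20 nM every 24 h for 3 days. All cells were grown with human interleukin-6, murine interleukin-3 and murine stem cell factor and were harvested at 72 h. By their source names the KO cells lack Mll5, a SET and PHD domain protein, while their genotype field names HOXA9, so the labels disagree on the gene that was lost. The labels do not say how the leukaemic cells were made or whether the arrays came from separate cultures. The title of the series concerns the effect of MLL5 expression on how well decitabine works in this leukaemia. The array measures no transcripts, so the cell type was not checked against markers.

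In mammals, many germline genes have CpG-rich promoters that gain DNA methylation in the early embryo and keep it in somatic tissues. Loss of this methylation, as after drugs that block DNA methyltransferases, is known to allow their transcription. They are therefore often used as a measure of promoter methylation outside the germ line. Whether any of the genes was silent in these cells is not shown by an array of methylated DNA.

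The 10 promoters were rich in CpG, the dinucleotide that carries methylation. In the 1000 bp around the start they held a median of 57.5 CpG, against 42 over 22238 annotated genes, and the ratio of observed to expected CpG was 0.69 against 0.56. The promoters of 5 genes are printed because they span the range of CpG content and of MeDIP level. By the mean over the 4 arrays, values near background included, Dazl had the highest promoter level and Tex19 the lowest. In the printed window Ddx4 had the most CpG, Sycp3 the fewest, and Hormad1 a pair of E-box sequences. Each runs from 250 bases before the start to 50 after it, 5′ to 3′ on the strand of the gene, from the mm9 genome, with every CpG in capitals.
Dazl promoter, chr17:50432875-50433174, minus strand: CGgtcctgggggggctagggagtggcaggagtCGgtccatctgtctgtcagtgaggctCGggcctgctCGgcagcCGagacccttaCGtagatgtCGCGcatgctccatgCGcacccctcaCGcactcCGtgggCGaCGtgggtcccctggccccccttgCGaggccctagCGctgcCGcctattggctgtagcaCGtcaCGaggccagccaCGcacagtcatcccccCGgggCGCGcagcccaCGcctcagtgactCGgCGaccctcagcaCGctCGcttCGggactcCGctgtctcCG
Sycp3 promoter, chr10:87922064-87922363, plus strand: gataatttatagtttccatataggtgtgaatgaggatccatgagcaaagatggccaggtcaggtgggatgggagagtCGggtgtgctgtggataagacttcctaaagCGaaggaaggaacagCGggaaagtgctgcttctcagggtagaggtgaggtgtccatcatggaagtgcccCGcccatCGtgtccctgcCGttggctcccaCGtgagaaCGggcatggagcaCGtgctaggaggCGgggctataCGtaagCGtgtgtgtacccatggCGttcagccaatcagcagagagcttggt
Ddx4 promoter, chr13:113442469-113442768, minus strand: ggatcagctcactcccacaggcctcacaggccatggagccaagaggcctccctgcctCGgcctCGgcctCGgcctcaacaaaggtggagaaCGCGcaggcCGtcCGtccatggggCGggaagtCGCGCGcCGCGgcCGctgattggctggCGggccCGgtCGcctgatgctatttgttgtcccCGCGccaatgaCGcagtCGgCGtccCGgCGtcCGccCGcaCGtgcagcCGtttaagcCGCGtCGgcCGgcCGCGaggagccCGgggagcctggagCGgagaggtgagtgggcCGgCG
Hormad1 promoter, chr3:95363349-95363648, plus strand: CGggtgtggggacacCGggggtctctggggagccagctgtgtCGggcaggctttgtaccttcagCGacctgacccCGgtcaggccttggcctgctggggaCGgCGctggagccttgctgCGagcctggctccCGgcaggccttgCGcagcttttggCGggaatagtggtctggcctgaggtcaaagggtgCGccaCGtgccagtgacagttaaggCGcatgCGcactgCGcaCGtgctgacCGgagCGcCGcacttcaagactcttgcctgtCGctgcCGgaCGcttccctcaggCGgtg
Tex19 promoter, chr11:121007207-121007506, plus strand: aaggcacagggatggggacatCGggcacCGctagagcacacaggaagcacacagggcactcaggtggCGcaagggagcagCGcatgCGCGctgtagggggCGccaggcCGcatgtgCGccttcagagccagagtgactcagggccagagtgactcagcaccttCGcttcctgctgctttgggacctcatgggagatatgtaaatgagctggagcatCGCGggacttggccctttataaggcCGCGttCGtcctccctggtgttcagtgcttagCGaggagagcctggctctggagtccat

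Within these windows the CpG count ran from 13 in Sycp3 to 38 in Ddx4, with a median of 21.5 over the 10 genes and 12 over all promoters. A pair of short sequences recurred in the promoters. The E-box CACGTG, which reads the same on both strands, occurred in 8 of the 10, in all but Dazl and Tex19. It occurred in 7.86% of all 22238 promoters of this length and in 11.6% of the 6621 that held at least as many CpG as the median germline promoter. GCGGGA, a core of E2F sites, searched on both strands as GCGGGA and TCCCGC, occurred in 7 of the 10, against 25.2% and 52.3% of the same background sets. Both occurred together in 6 of the 10, against 2.55% and 5.77%, and 0 of their matches overlapped. Sycp3 and Hormad1 held 2 E-boxes each, at -46 and -25 bp in Sycp3 and at -57 and -20 bp in Hormad1, counted from the start to the first base of the match. The matches are a description of the letters and say nothing about binding in these cells.

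MeDIP signal was weak on every array, so most values of the 10 genes rest on dim probes. More spots stood well above background on both decitabine arrays. Of all spots, 10.7% on the KO decitabine array, 9.34% on the WT decitabine array, 2.69% on the KO untreated array and 2.73% on the WT untreated array had MeDIP signal that the scanner software called well above background; such probes are called bright here. The lowest signal called bright was 850 on the KO decitabine array and 1035 on the WT decitabine array. It was 1250 on the KO untreated array and 1400 on the WT untreated array. A signal bright on a decitabine array can thus go uncalled on an untreated one, so counts of bright probes do not compare signal between treatments. Where a signal was too close to background, the software had written a surrogate in its place. A probe was kept where its input was well above background and uniform on all 4 arrays. This kept 195 of the 306 germline probes (63.7%), against 63.1% of all probes. Of the 195, 31 were bright on the KO decitabine array (15.9%), 27 on the WT decitabine array (13.8%), 6 on the KO untreated array (3.08%) and 9 on the WT untreated array (4.62%). Over all kept probes the shares were 16.1%, 14.2%, 4.09% and 4.08% in the same order of arrays, so bright probes were about as common in the germline genes as elsewhere. The 4 arrays came from 4 slides, and effects of slide and group cannot be told apart. No group has a replicate array to check a difference against, and an error after ± is the SD over the probes of a gene.

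Few probes of the 10 promoters were bright, and promoters at large were bright about as often as other probes. Within 500 bp of the 10 starts lay 58 probes, of which 35 were kept. Of these 35, 5 were bright on the KO decitabine array, 3 on the WT decitabine array, 0 on the KO untreated array and 1 on the WT untreated array. Over the kept promoter probes of all genes 17.2%, 15.8%, 4.31% and 3.73% were bright, in the same order of arrays. Over all kept probes the shares were 16.1%, 14.2%, 4.09% and 4.08%. All 23 probes left out had input not well above background on at least 1 array, 10 of them on every array, and 0 were bright on any array. Input was well above background at 65.5%, 69.0%, 62.1% and 79.3% of the 58 probes (KO decitabine, WT decitabine, KO untreated, WT untreated), below the 69.5%, 83.0%, 77.3% and 85.9% of all promoter probes. For 6 of the 10 genes no kept promoter probe was bright on any array. The other 4 were Dazl, Tdrd1, Ddx4 and Mov10l1. The same 4 were the genes with a promoter probe that held a surrogate on no array, 6 probes in all. Another 12 of the 35 held a surrogate on all 4 arrays, among them both probes of Sycp1 and the only probe of Slc25a31. Over the promoter probes of all genes, 29.3% held a surrogate on all 4 arrays and 17.6% on none. Surrogates were thus common at promoters at large too. A ratio with a surrogate is a floor divided by the input, and the floors were mostly lower on the decitabine arrays, so such values do not show whether MeDIP signal was higher or lower.

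Values are log2 ratios of MeDIP over input, with 0 at the median of all kept probes of an array. On 3 of the arrays this ratio was lower at the CpG-densest than at the CpG-poorest of all kept probes. From the sparsest to the densest of 17 bins of CpG count, the bin median was -0.13 and 0.07 on the KO decitabine array, 0.12 and -0.67 on the WT decitabine array, 0.19 and -0.68 on the KO untreated array, and 0.37 and -1.10 on the WT untreated array. Each promoter probe was therefore set against the median of all kept probes in its bin. On this CpG-matched scale the median of the 10 promoters was 0.06 on the KO decitabine array, 0.01 on the WT decitabine array, 0.04 on the KO untreated array and -0.05 on the WT untreated array, with an SD of 0.42 to 0.58 over the 10. Over 14163 genes the medians were -0.06, -0.04, -0.06 and -0.04 in the same order of arrays. Of the 10 promoters, 5, 5, 5 and 4 stood above 0, against 44.8%, 46.9%, 44.7% and 47.2% of all genes. The medians depend on the probes taken. With no filter on input they were 0.27, 0.26, 0.46 and 0.19, against 0.03, 0.10, 0.03 and 0.04 over all genes. Within 1000 bp of the start they were 0.15, 0.23, 0.19 and 0.26, against -0.07, -0.02, -0.06 and -0.02, with 8, 8, 10 and 6 of the 10 above the median of all genes. With CpG counted in the probe itself they were -0.04, -0.20, -0.16 and -0.31, against -0.11, -0.18, -0.25 and -0.29. No group position above or below other DNA of like CpG density is drawn from them.

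**Figure D1:**
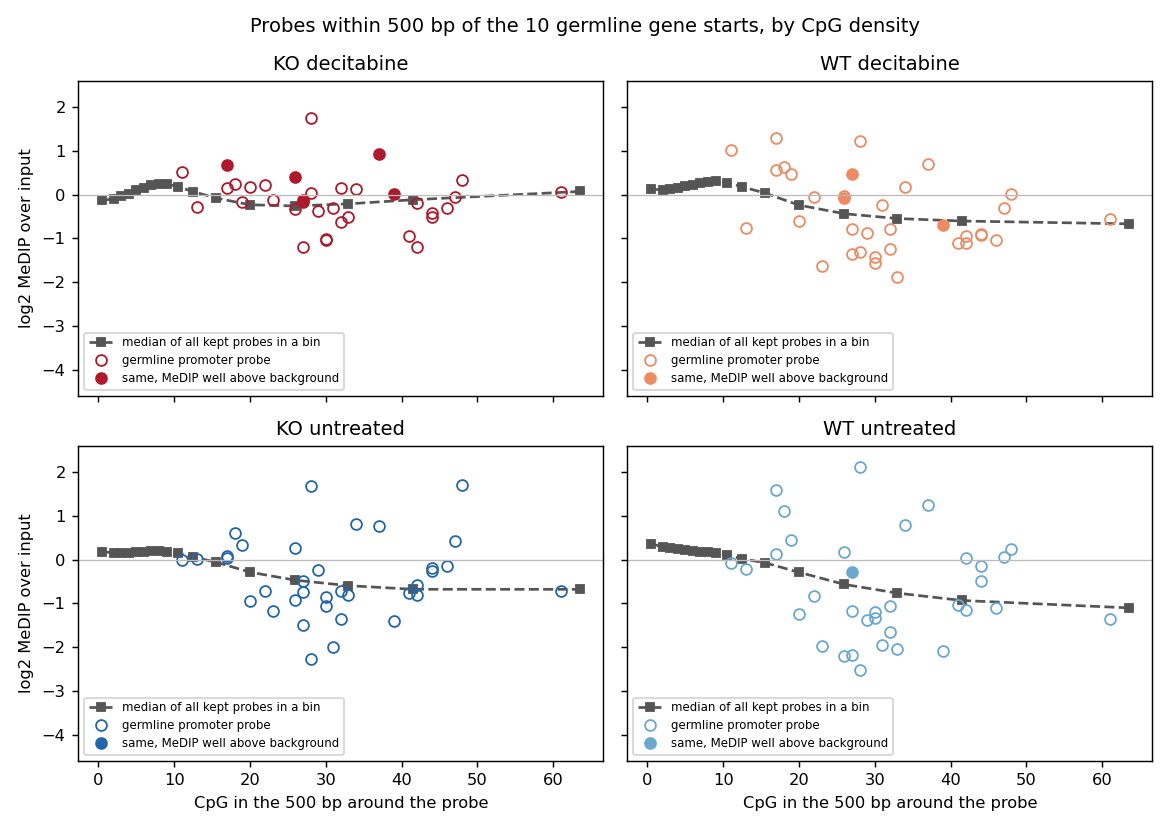
Log2 ratio of MeDIP over input (vertical axis) against the number of CpG in the 500 bp around the probe (horizontal axis) for the 35 kept probes within 500 bp of the 10 germline gene starts, 1 panel an array. Circles are single probes, filled where the MeDIP signal was well above background (5, 3, 0 and 1 probes), and squares are medians of all kept probes of a CpG bin; the circles lie on both sides of the squares on every array.

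Dazl, an RNA-binding protein that controls translation in germ cells, had the highest promoter level of the 10 by the mean over the 4 arrays, and on the KO decitabine array Ddx4 was higher. Its CpG-matched level was 0.38 on the KO decitabine array, 0.51 on the WT decitabine array, 0.97 on the KO untreated array and 1.32 on the WT untreated array, at percentiles 82.4, 87.5, 97.5 and 97.6 of all genes. It rests on 2 probes that differ. The probe centred 274.5 bp into the gene, in an intron, had ratios of 0.93, 0.70, 0.78 and 1.26 on those arrays and was bright on the KO decitabine array alone, while the probe at 407 bp had -0.41, -0.89, -0.20 and -0.48 and held a surrogate on every array. At the first, the decitabine and untreated ratios overlapped. Its MeDIP signal was 1286 on the KO decitabine array and 1544 on the WT untreated array, where it was not called bright. Sycp1, the transverse filament of the synaptonemal complex that joins paired meiotic chromosomes, stood at -0.16 (KO decitabine), -0.04 (WT decitabine), 0.82 (KO untreated) and 0.49 (WT untreated) over 2 probes. Both held surrogates on all 4 arrays, so no order of the arrays is read from them.

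Sycp3, a component of the lateral elements of the same complex, lay close to other DNA of its CpG density, at -0.01 (KO decitabine), -0.04 (WT decitabine), -0.02 (KO untreated) and -0.14 (WT untreated) over 7 probes. All 7 held surrogates on both untreated arrays, and 3 (KO) and 4 (WT) of them did so with decitabine. Hormad1, which binds the axis of meiotic chromosomes that have not yet paired, stood at -0.43 (KO decitabine), -0.39 (WT decitabine), 0.23 (KO untreated) and 0.19 (WT untreated) over 3 probes. All 3 held surrogates on the untreated arrays and 2 of them on the decitabine arrays too, so these values are mostly floors over input.

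Among the genes of the piRNA pathway, which silences transposons in the germ line, 3 had a promoter probe measured without surrogates on all arrays. Mael, a protein of the germ granule, had none and stood at 0.13 (KO decitabine), 0.12 (WT decitabine), -0.16 (KO untreated) and -0.36 (WT untreated) over 7 probes. Tdrd1, a tudor protein that binds Piwi proteins, stood at 0.24 (KO decitabine), 0.06 (WT decitabine), -0.02 (KO untreated) and -0.22 (WT untreated) over 4. Mael held surrogates at 6 of its 7 probes on each untreated array, against 2 (KO) and 1 (WT) with decitabine. The Tdrd1 probe at 481 bp, free of surrogates, had 0.67 (KO decitabine), 0.57 (WT decitabine), 0.03 (KO untreated) and 0.13 (WT untreated), so that its decitabine ratios lay above its untreated ones. Mov10l1, an RNA helicase of piRNA processing, stood at 0.30 (KO decitabine), 0.31 (WT decitabine), -0.31 (KO untreated) and -0.10 (WT untreated) over 3 probes. Its probe at -203 bp had higher ratios with decitabine in both genotypes, whereas that at -302.5 bp had 0.25 (KO decitabine), 0.63 (WT decitabine), 0.60 (KO untreated) and 1.11 (WT untreated), lower with decitabine in both. Ddx4, the mouse Vasa helicase of the germ granule, stood at 0.46 (KO decitabine), 0.09 (WT decitabine), 0.29 (KO untreated) and -0.00 (WT untreated) over 4. The Ddx4 values of treated and untreated cells overlapped. Its probe at 260 bp had 0.02 (KO decitabine), -0.69 (WT decitabine), -1.39 (KO untreated) and -2.10 (WT untreated), and that at -292.5 bp had 1.76 (KO decitabine), 1.23 (WT decitabine), 1.68 (KO untreated) and 2.13 (WT untreated). The first was thus higher with decitabine in both genotypes, and the other was so in KO cells and lower in WT cells.

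The promoters of Slc25a31 and Tex19 had almost no measured MeDIP signal. Slc25a31, a mitochondrial ADP/ATP carrier of male germ cells, had 1 kept promoter probe, at -1.08 (KO decitabine), -0.50 (WT decitabine), 0.11 (KO untreated) and 0.96 (WT untreated), with a surrogate on all 4 arrays. These values are a floor over input and give the gene no rank. Tex19, a protein that restrains retrotransposons in mouse germ cells, stood at -0.64 (KO decitabine), -0.93 (WT decitabine), -0.16 (KO untreated) and -0.42 (WT untreated) over 2 probes. Both held surrogates on every array, except 1 of them on the WT decitabine array. The place of Tex19 as the lowest of the 10 is thus mostly a floor over input. The 1000 bp around its start have an observed to expected CpG ratio of 0.45, the lowest of the 10. 

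On the CpG-matched scale, surrogates included, each of the 10 promoters differed with decitabine in the same direction in KO and WT cells, where 68.5% of 14163 genes did. Sycp3, Mael, Tdrd1, Ddx4 and Mov10l1 were higher and Dazl, Sycp1, Hormad1, Slc25a31 and Tex19 lower. For Sycp1 and Slc25a31 this is no measured direction, since every value is a surrogate, and for Hormad1 and Tex19 nearly every value is. On the untreated arrays Sycp3 held surrogates at all 7 probes, Mael at 6 of 7 and Tdrd1 at 2 (KO) and 3 (WT) of 4. Their higher values with decitabine are thus largely set against floors. Ddx4 held surrogates there at 1 (KO) and 2 (WT) of 4 probes, Mov10l1 at 1 of 3 and Dazl at 1 of 2. The count of 10 was 6 to 10 over the alternatives, and the members of each side changed. With loess normalization Ddx4 and Mov10l1 turned lower in both genotypes, with the median over probes Sycp3 turned lower in both, and within 1000 bp of the start Hormad1 turned higher in both and Dazl, Sycp3, Tdrd1 and Mov10l1 had no shared sign. The pattern was noticed in these data and carries no test. With surrogates included, the median CpG-matched difference with decitabine was -0.24 in KO cells and -0.21 in WT cells, with 5 of 10 higher in each. It was 0.00 for KO against WT cells with decitabine (5 of 10 higher) and 0.16 without treatment (7 of 10 higher). Without CpG matching, 9 of 10 promoters were higher in KO than in WT cells with decitabine, by 0.31 in the median, against 64.1% of all genes and a median of 0.18.

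The flanks of the promoters stood higher than the promoters. From 500 to 1000 bp after the start the median ratio of the germline probes was 0.21 on the KO decitabine array, 0.83 on the WT decitabine array, 0.22 on the KO untreated array and 0.75 on the WT untreated array. From 0 to 500 bp it was -0.11, -0.78, -0.57 and -1.10 on the same arrays. Over all genes the medians were -0.11, -0.16, -0.17 and -0.16 from 500 to 1000 bp, and -0.13, -0.47, -0.49 and -0.68 from 0 to 500 bp. The dip at the start is thus seen in the medians of all genes too, and the germline medians lay above them from 500 to 1000 bp on each array. Of the 18 kept germline probes from 500 to 1000 bp, 6 were bright on the KO decitabine array, 6 on the WT decitabine array, 0 on the KO untreated array and 2 on the WT untreated array. The shares over all genes were 14.7%, 13.4%, 3.95% and 3.60%.

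**Figure D2:**
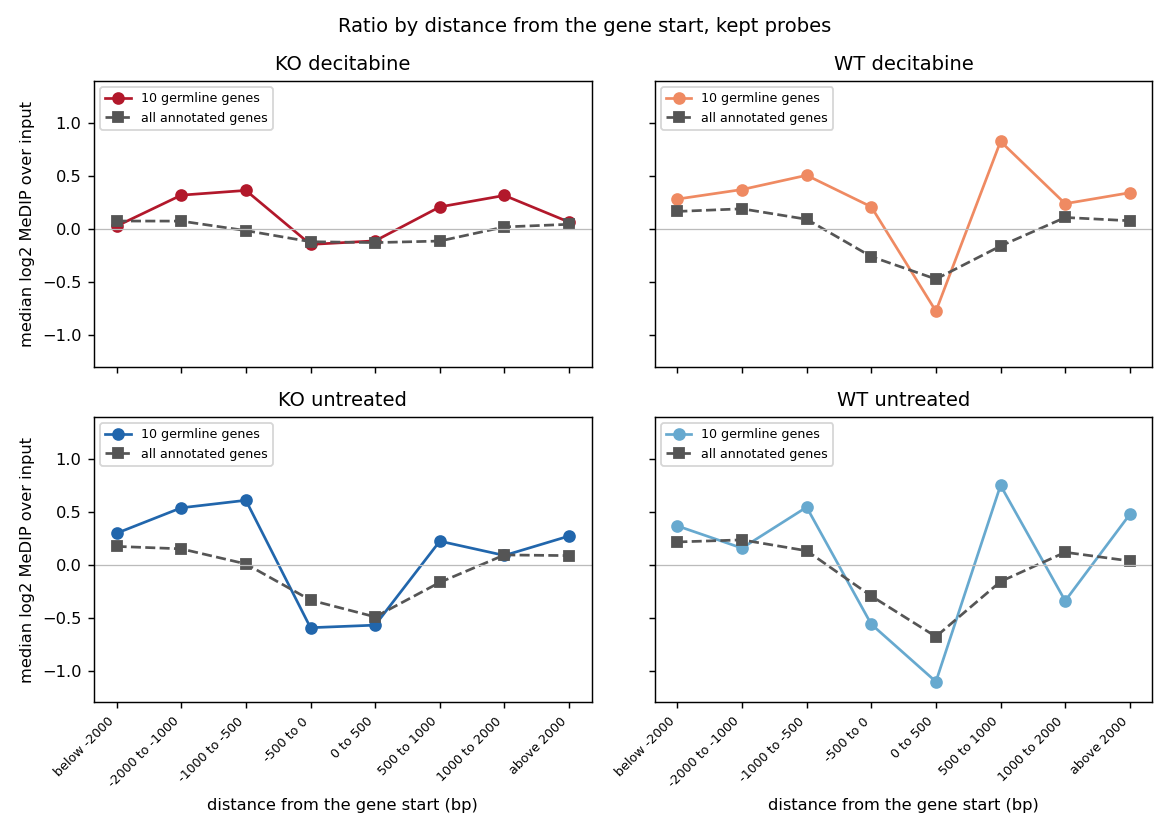
Median log2 ratio of MeDIP over input (vertical axis) of kept probes by distance from the gene start in bp (horizontal axis), for the 10 germline genes (circles) and all annotated genes (squares), 1 panel an array. Both sets have their lowest median within 500 bp of the start, and from 500 to 1000 bp after it the germline medians (0.21, 0.83, 0.22 and 0.75) lie above those of all genes on each array.

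The flank from 500 to 1000 bp was chosen after its values were seen, so its values, surrogates included, are a description without a test. Taking 500 to 1000 bp on both sides and matching for CpG density, the median of the 10 genes was 0.39 on the KO decitabine array, 0.44 on the WT decitabine array, 0.34 on the KO untreated array and 0.73 on the WT untreated array. Over 13449 genes it was -0.07, -0.02, -0.06 and 0.02. Of the 10 genes, 8, 9, 8 and 8 were above 0, against 45.1%, 48.7%, 45.8% and 51.0% of all genes. The other germline genes listed below were above 0 in 28, 26, 18 and 20 of 39, and 22 housekeeping genes in 9, 8, 3 and 9. Mov10l1 had the highest mean over the 4 arrays, 0.74 over 4 probes, with Ddx4 at 0.73 over 3 and Dazl at 0.67 over 2. Slc25a31 stood at 0.46 (KO decitabine), 0.36 (WT decitabine), 0.63 (KO untreated) and 0.69 (WT untreated) over 4 probes, and Sycp1 at 0.27, 0.42, 0.52 and 0.55 in the same order over 5. Sycp3, Hormad1, Tdrd1 and Tex19 were below 0 on at least 1 array. Sycp3 stood at -0.25 (KO decitabine), 0.20 (WT decitabine), -0.07 (KO untreated) and -0.77 (WT untreated) over 4 probes, and Hormad1 at 0.73 (KO decitabine), 0.47 (WT decitabine), -0.18 (KO untreated) and -1.02 (WT untreated) over 3. Tdrd1 was below 0 on the WT decitabine array, at -0.48, and Tex19 on the KO decitabine array, at -0.50 over 1 probe. Of the 30 probes, 7 were bright on the KO decitabine array, 7 on the WT decitabine array, 1 on the KO untreated array and 3 on the WT untreated array. That is 23.3%, 23.3%, 3.33% and 10.0%, against 14.5%, 12.8%, 3.83% and 3.69% over all genes. Both Dazl probes held a surrogate on no array. The Mov10l1 probe at -811.5 bp held one on all 4 arrays, and the Mael probe at 972.5 bp on the KO decitabine and WT untreated arrays. The flank medians and the order of the genes thus rest partly on floors over input.

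Some probes outside the promoter cores were bright on most arrays. Of the 195 kept probes, 157 (80.5%) were bright on no array, against 81.2% of all kept probes. Another 12 were bright on both decitabine arrays and on neither untreated array, a share of 6.15% against 6.87% of all kept probes, and 0 on both untreated arrays alone. There were 4 bright on all 4 arrays (2.05% against 2.65%), 3 of Sycp3 and 1 of Mael, and 5 on 3 (2.56% against 2.29%), shares close to those of all probes. The 4 are printed with the Mov10l1 and Sycp1 probes that lie nearest a start among those bright on 3, with distances counted from the start to the centre of the probe and CpG in capitals.
Sycp3 probe at -5420.5 bp, chr10:87916864-87916923, plus strand: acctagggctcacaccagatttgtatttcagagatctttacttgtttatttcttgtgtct
Sycp3 probe at -2273.5 bp, chr10:87920015-87920066, plus strand: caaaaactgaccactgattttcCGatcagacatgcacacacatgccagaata
Sycp3 probe at -1807.5 bp, chr10:87920477-87920536, plus strand: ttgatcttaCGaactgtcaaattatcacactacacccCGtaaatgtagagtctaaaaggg
Mael probe at -4797.5 bp, chr1:168173647-168173698, plus strand: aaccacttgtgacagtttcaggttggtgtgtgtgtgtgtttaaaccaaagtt
Mov10l1 probe at -203 bp, chr15:88813114-88813158, plus strand: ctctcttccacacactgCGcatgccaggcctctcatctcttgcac
Sycp1 probe at 566 bp, chr3:102739435-102739479, plus strand: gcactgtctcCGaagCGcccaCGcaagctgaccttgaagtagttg

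The 3 Sycp3 probes and the Mael probe held 0, 1, 2 and 0 CpG in the order printed. They had 6, 4, 10 and 7 CpG in the 500 bp around them, against a median of 30 at the kept germline promoter probes. They lie upstream of the promoters. The Sycp3 probe at -1807.5 bp had ratios of 1.85 (KO decitabine), 0.91 (WT decitabine), 0.62 (KO untreated) and 0.69 (WT untreated). The Sycp3 probe at -2273.5 bp had 0.74 (KO decitabine), 1.16 (WT decitabine), 0.74 (KO untreated) and 0.59 (WT untreated). Both were above the array median on every array. The Sycp3 probe at -5420.5 bp had 0.37 (KO decitabine), 0.15 (WT decitabine), -0.21 (KO untreated) and 0.07 (WT untreated). The Mael probe at -4797.5 bp, which holds a run of GT repeats, had 1.50 (KO decitabine), 0.85 (WT decitabine), 0.30 (KO untreated) and 0.86 (WT untreated). Its ratio was above the median of kept probes on every array. Its input signal was 40005, 37472, 37060 and 29609 in the same order of arrays. At the Mael probe at -2598.5 bp the input was 2883, 2366, 1700 and 1757. The Mael probe with the GT run was thus very bright in the input as well. The Sycp1 probe at 566 bp lies in a coding exon with 37 CpG in the surrounding 500 bp and had 1.85 (KO decitabine), 0.66 (WT decitabine), 0.21 (KO untreated) and 0.95 (WT untreated). It was bright on all arrays but the KO untreated one and stood above the array median on each. The Mov10l1 probe at -203 bp, inside the CpG-dense promoter, had -0.12 (KO decitabine), 0.48 (WT decitabine), -0.48 (KO untreated) and -0.29 (WT untreated), with 27 CpG around it. It was bright on the same 3 arrays, and on all but the WT decitabine array its ratio lay below the array median.

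Over all their kept probes the 10 genes stood slightly above the median gene on 3 arrays. The median of their gene means was 0.16 on the KO decitabine array, 0.18 on the WT decitabine array, 0.11 on the KO untreated array and -0.07 on the WT untreated array, against 0.02, 0.04, -0.04 and -0.04 over 18332 genes. Other germline genes had medians of 0.18, 0.20, 0.11 and 0.02 (43 genes), and housekeeping genes with CpG islands -0.14, -0.07, -0.35 and -0.26 (25 genes). The spread between the 10 genes, with SDs of 0.25, 0.23, 0.20 and 0.30, was larger than their distance from the median gene. The kept probes lay mostly outside exons, with 96 upstream and 76 in introns.

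Among the meiotic genes, Dazl averaged 0.12 (KO decitabine), 0.16 (WT decitabine), -0.13 (KO untreated) and -0.22 (WT untreated) over 11 probes. Sycp1 averaged -0.07 (KO decitabine), 0.17 (WT decitabine), 0.22 (KO untreated) and 0.40 (WT untreated) over 13. Sycp3 averaged 0.22 (KO decitabine), 0.18 (WT decitabine), 0.06 (KO untreated) and -0.18 (WT untreated) over 30. Dazl and Sycp3 were higher on both decitabine arrays and Sycp1 on both untreated ones, although the SD over probes was 0.53 to 1.76. In that order of arrays, surrogates stood at 2, 2, 5 and 5 of the 11 Dazl probes. For Sycp1 they stood at 8, 7, 10 and 9 of 13, and for Sycp3 at 8, 9, 18 and 18 of 30. These directions thus rest partly on floors over input. Hormad1 averaged 0.39 (KO decitabine), 0.16 (WT decitabine), 0.06 (KO untreated) and -0.28 (WT untreated) over 16. It had the highest value of the 10 on the KO decitabine array, where 5 of its 16 probes were bright.

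Among the piRNA genes, Tdrd1 averaged 0.30 (KO decitabine), 0.43 (WT decitabine), 0.36 (KO untreated) and 0.31 (WT untreated) over 37 probes. Mov10l1 averaged 0.27 (KO decitabine), 0.47 (WT decitabine), 0.17 (KO untreated) and 0.38 (WT untreated) over 21. Both were above the median gene on every array, at percentiles 80.6, 86.1, 90.3 and 78.2 for Tdrd1. Tdrd1 was bright in 5 and 4 probes on the KO and WT decitabine arrays and in 0 on both untreated arrays. Ddx4 averaged 0.20 (KO decitabine), 0.32 (WT decitabine), 0.16 (KO untreated) and 0.01 (WT untreated) over 16. Mael averaged 0.07 (KO decitabine), -0.01 (WT decitabine), -0.22 (KO untreated) and -0.15 (WT untreated) over 26. Ddx4 and Mael were higher on both decitabine arrays. In the same order of arrays, surrogates stood at 14, 11, 22 and 18 of the 37 Tdrd1 probes. For Mov10l1 they stood at 5, 5, 11 and 8 of 21. For Ddx4 they stood at 5, 4, 7 and 11 of 16, and for Mael at 10, 8, 17 and 16 of 26. The values of these 4 genes thus rest partly on floors over input.

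Slc25a31 averaged -0.35 (KO decitabine), 0.19 (WT decitabine), 0.30 (KO untreated) and 0.32 (WT untreated) over 11 probes. The KO decitabine array was the one that stood apart, at percentile 10.7 of all genes, with 1 of 11 probes bright. Tex19 averaged -0.30 (KO decitabine), -0.35 (WT decitabine), -0.20 (KO untreated) and -0.39 (WT untreated) over 14 and was the lowest of the 10 on the WT decitabine and WT untreated arrays. By the mean over the 4 arrays the order was Tdrd1 (0.35), Mov10l1 (0.32), Sycp1 (0.18), Ddx4 (0.17), Slc25a31 (0.11), Hormad1 (0.08), Sycp3 (0.07), Dazl (-0.02), Mael (-0.08) and Tex19 (-0.31). Neighbours in this order differed by less than the range of each over the 4 arrays, except Tex19, whose highest value of -0.20 lay near the lowest of Mael, -0.22. Surrogates are included, at 7 to 11 of the 14 Tex19 probes and 5 to 7 of the 11 Slc25a31 probes. The order is thus partly one of floors over input. The genes on the array whose 4 values lay nearest the median of the 10 were Zhx2, Thsd4, Ccdc66, Cc2d2a and Zc3h12d, at Euclidean distances of 0.04 to 0.06 over the 4 arrays.

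**Figure D3:**
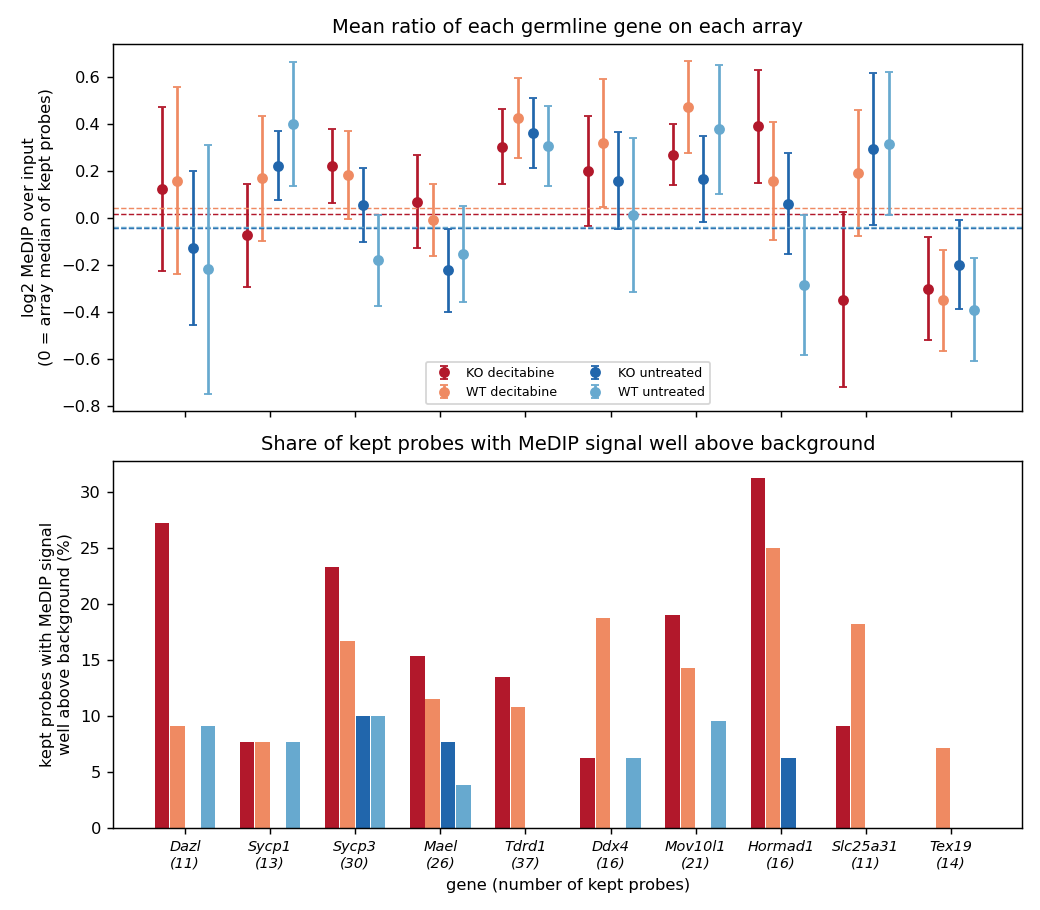
Upper panel: mean log2 ratio of MeDIP over input of each germline gene (vertical axis) on each of the 4 arrays, with bars of 1 standard error over probes and dashed lines at the median of all genes on that array. The bars are no replicate error, since each group has 1 array. Lower panel: share of kept probes with MeDIP signal well above background in percent; the shares are highest on the decitabine arrays for Hormad1 (5 of 16 probes in KO cells) and Dazl (3 of 11 in KO cells), and Tex19 has 1 such probe on 1 array.

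The next comparison asks whether the germline genes as a whole differed with decitabine. In KO cells the median difference of the 10 genes was 0.07, with 6 above 0, against 0.09 and 62.1% over all genes. In WT cells it was 0.13, with 8 above 0, against 0.10 and 62.7%. The number of the 10 that reached 2-fold with at least 80% of their probes moving that way was 0 in KO and 0 in WT cells, where 0.715% and 0.742% of all genes did. Centring the arrays on housekeeping genes turned both medians below 0, to -0.14 in KO and -0.06 in WT cells, and so did loess, so they carry no direction. Among genes with a bright probe on both arrays, the KO values were 0.33 ± 0.76 for Hormad1, 0.29 ± 1.03 for Mael and 0.16 ± 0.80 for Sycp3. The WT values were 0.38 ± 1.24 for Dazl, 0.36 ± 0.90 for Sycp3, 0.31 ± 0.92 for Ddx4, 0.15 ± 0.91 for Mael, 0.10 ± 0.93 for Mov10l1 and -0.23 ± 0.69 for Sycp1. Each SD over probes exceeds its difference. For 6 further genes in KO and 4 in WT cells only 1 of the 2 arrays had bright probes, and as the lower bound of their fold came to under 1, no fold is given. Tex19 was bright on neither KO array.

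At the level of single probes bright on both arrays, the KO comparison held 6 germline probes, all higher with decitabine, by 0.70 in the median. Over all 13113 such probes 90.5% were higher, by 0.85. In WT cells 5 of 8 germline probes were higher, by 0.15 in the median, against 68.5% and 0.40 over all 12119. In both genotypes the median over germline probes lay below that over all probes. The germline probes came from only 3 of the 10 genes in KO and 5 in WT cells, so nothing is read from this about the 10 genes. The Mael probe at -4797.5 bp, with its high input, is among the germline probes in both, at 1.20 (KO) and -0.01 (WT). Surrogate MeDIP values made up 37.6% of all kept probes on the KO decitabine array against 58.9% on the KO untreated array, and 38.7% on the WT decitabine array against 60.8% on the WT untreated array. With only probes that held no surrogate, which left 9 of the 10 genes, the median difference with decitabine was 0.11 in KO and 0.32 in WT cells. With all kept probes it was 0.07 and 0.13. That setting also takes fewer probes, so the part of the surrogates alone was not tested.

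limma, fitted across all 18332 genes with additive effects of treatment and genotype, gave the decitabine change a test. It passed 0 of the 10 genes at an adjusted p under 0.05, against 14.5% of all genes. The 1 residual degree of freedom is the departure from additivity, so the error is no replicate error. At an unadjusted p under 0.05 there were 3, where 33.1% of all genes were. Hormad1 stood at 0.39 (SE 0.12, limma adjusted p = 0.0579), Dazl at 0.31 (SE 0.12, limma adjusted p = 0.104) and Slc25a31 at -0.38 (SE 0.15, limma adjusted p = 0.1). Each of these genes had the same sign in both genotypes, and Dazl and Slc25a31 had bright probes on 3 and 2 of the 4 arrays. The calls depend on where the arrays are centred: centred on all probes, which adds 0.12 in KO and 0.16 in WT cells to each gene, Dazl, Sycp3, Mael and Hormad1 passed as higher, where 31.5% of all genes passed. Centred on probes bright in both channels, which takes 0.75 and 0.45 away, Sycp1, Tdrd1, Mov10l1, Slc25a31 and Tex19 passed as lower, where 55.2% of all genes passed. Over all genes 75.8% of those that passed were higher, and this share was 21.1% centred on housekeeping genes, 94.5% centred on all probes and 0.732% centred on bright probes.

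**Figure D4:**
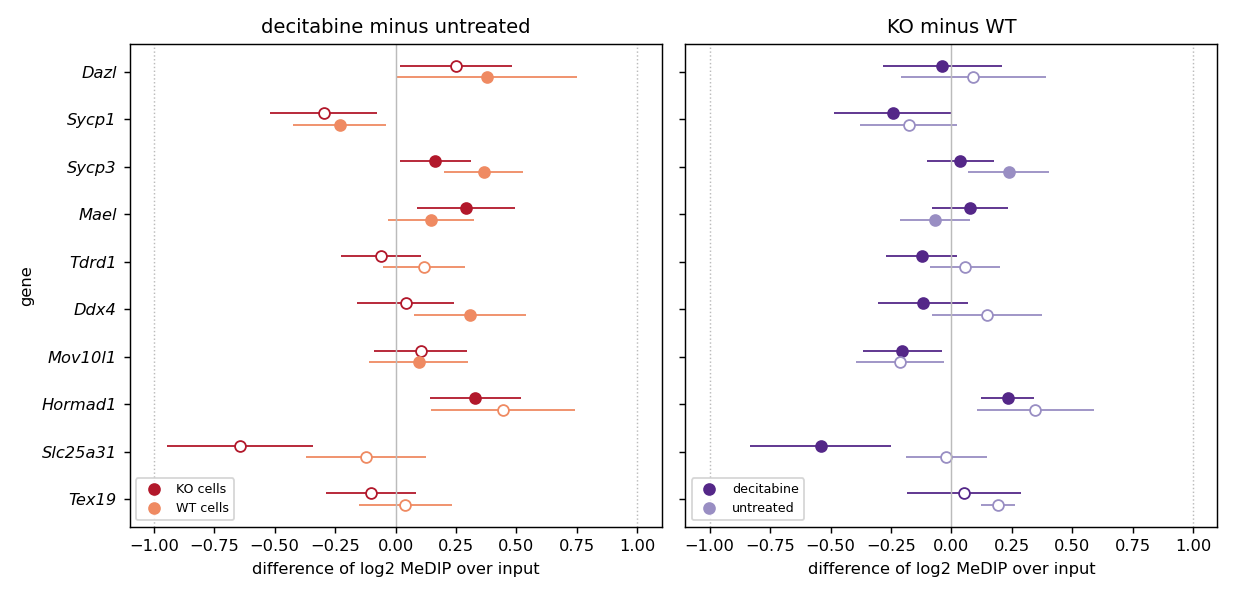
Difference of log2 ratio of MeDIP over input (horizontal axis) for each germline gene (vertical axis), left with decitabine minus untreated in KO and WT cells, right KO minus WT with decitabine and untreated. Bars are 1 standard error over the probes of a gene and no replicate error, since each group has 1 array. Filled circles are genes bright on both arrays, open circles are not, and dotted lines mark a 2-fold difference. No gene reaches it, and the most negative value is Slc25a31 with decitabine in KO cells.

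KO and WT cells were compared within each treatment. With decitabine the median difference of the 10 genes was -0.08, with 4 above 0, against -0.01 and 48.0% over all genes. Without treatment it was 0.07, with 6 above 0, against 0.00 and 50.6%. None reached 2-fold with decitabine (0.562% of all genes) or without (0.36%), a count of 0 in both. With decitabine Slc25a31 was lower in KO than in WT cells, by a log2 difference of -0.54 ± 0.97 over 11 probes, of which 9 were lower, and Hormad1 higher, by 0.23 ± 0.43 over 16. Slc25a31 lay at percentile 3.29 of all genes, with 1 bright probe in KO and 2 in WT cells. It held surrogates at 6 (KO) and 5 (WT) of its 11 probes there, so much of this difference is between floors over input. Its genotype effect over both treatments was -0.28 in limma, and -0.03 without surrogate MeDIP values. Untreated, 2 genes had bright probes on both arrays: Sycp3 at 0.24 ± 0.92 and Mael at -0.07 ± 0.74. In limma the genotype effect passed in 0 of the 10 genes, against 4.11% of all genes, and at an unadjusted p under 0.05 in 1 against 22.6%, Hormad1, at 0.29 (SE 0.12, limma adjusted p = 0.193). Among single probes bright on both decitabine arrays, 15 of 21 germline probes were higher in KO cells, by 0.42 in the median, against 71.8% and 0.31 over all probes.

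Other genes of meiosis, the piRNA pathway and germ cells give the setting. Of 63 listed, 44 were on the array and 43 had enough kept probes. In limma 4 of the 43 rose with decitabine and 0 fell, where 14.5% of all genes passed in either direction: Sycp2 by 0.97, Brdt by 0.66, Fkbp6 by 0.63 and Tex11 by 0.57 (limma adjusted p = 0.00286, 0.0107, 0.018 and 0.0355). They were named after their values were seen. Sycp2, the partner of Sycp3 in the lateral element, was also more than 2-fold higher in KO than in WT cells, by a log2 difference of 1.19 with decitabine and 1.08 without. Its 4 kept probes averaged 0.56 (KO decitabine), -0.63 (WT decitabine), -0.46 (KO untreated) and -1.54 (WT untreated), and 2, 2, 1 and 1 of them were bright. All 4 probes lie within 500 bp of its start, and 1 of them, at 141 bp, held a surrogate on no array. It had 0.51 (KO decitabine), -0.09 (WT decitabine), -0.64 (KO untreated) and -1.96 (WT untreated). In limma its genotype effect was 1.13 (SE 0.12, limma adjusted p = 0.00811), and with loess within the array it was 0.78 and did not pass (limma adjusted p = 0.171). Without surrogate MeDIP values Sycp2 was not measured. None of the 4 decitabine changes passed when centred on bright probes, with Sycp2 at 0.37 (limma adjusted p = 0.124) and Tex11 turned to -0.03, or with loess, with Sycp2 at 0.71 (limma adjusted p = 0.167) and Fkbp6 turned to -0.06. Zcwpw1, a histone reader of meiosis, fell by 0.58 in KO cells (limma adjusted p = 0.0396), and did not pass under 6 of the 9 alternatives that measured it, among them normexp, where it stood at -0.18 (limma adjusted p = 0.655), and centring on all probes (limma adjusted p = 0.0609). On the CpG-matched promoter scale the highest of 39 by the mean over 4 arrays were Tktl2 (0.80), Zfp42 (0.66), Dnd1 (0.65), Ldhc (0.64) and Smc1b (0.63). The lowest were Nanos2 (-1.21), Tex12 (-0.87), Rnf17 (-0.84), Sohlh1 (-0.82) and Figla (-0.75). Their range encloses the 10 genes, of which Dazl, at 0.79, would rank beside the highest and Tex19, at -0.54, above the 5 lowest. Neither rank is firm, since 1 of the 2 Dazl probes held a surrogate on every array and the Tex19 values were mostly surrogates.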

How the data were processed

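The authors deposited the scanner output of 4 Agilent 2-colour arrays, made with Agilent Feature Extraction (version 10.5, per the submitters' processing notes; the file headers give 10.5.1.1). Per the labels, Cy3 was MeDIP DNA and Cy5 input DNA on every array, with no dye swap, so dye bias cannot be told apart from enrichment. Per the labels' protocols, MeDIP and input DNA went through whole-genome amplification and then labelling. The deposited intensities are on a linear scale, with background subtracted, surrogates written for signals near background and dyes normalized, per the file headers. The log10 ratio in the same files is Cy5 over Cy3, per the file headers, and served as an alternative. The authors' deposited value table is on a log2 scale and was not used here.

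A log2 ratio, MeDIP over input, was taken from the processed intensities, averaged per probe and centred on the median of probes with input well above background and no non-uniformity outlier on all 4 arrays. A gene is the mean of at least 3 such probes, which gave 18332 genes. Promoters use GENCODE starts in mm9, the build of the file headers; RefSeq starts lay within 85 bp. CpG were counted in 500 bp around a probe, in 17 bins. limma 3.58.1 (lmFit, eBayes, Benjamini-Hochberg) ran under R 4.3.3 and was tested on simulated data. Promoter sequences are from the mm9 genome and probe sequences from the deposited files.

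The 10 genes and the gene lists were chosen with earlier results of these data known. The rule for named genes takes the 10, the 5 highest and 5 lowest other germline promoters at matched CpG density, those at 2-fold, and the 5 genes with at least 8 kept probes nearest the median of the 10. Alternatives changed the centring, background correction, loess, probe filter, summary over probes, source of the ratio, promoter window and window of CpG density. The number of arrays and the MeDIP signal over background limit the precision.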

Additional observations from a re-analysis of the deposited data

Results flagged for a closer look

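Tdrd1 and Tex19 had decitabine changes of opposite sign in KO and WT cells. Tdrd1 changed by -0.06 in KO cells and by 0.12 in WT cells, so that the KO change minus the WT change was -0.18, at percentile 25.7 of all genes. Tex19 changed by -0.10 in KO cells and by 0.04 in WT cells, a difference of -0.14, at percentile 30.4. With 1 array a group the difference was not tested. Tdrd1 was bright in 5 and 4 of its 37 probes on the KO and WT decitabine arrays and in 0 on the untreated arrays, and Tex19 in 1 of its 14 probes on the WT decitabine array alone. Tdrd1 held surrogates at 22 (KO) and 18 (WT) probes untreated and at 14 and 11 with decitabine. Tex19 held them at 10 (KO) and 11 (WT) untreated and at 8 and 7 with decitabine. The signs thus rest partly on floors over input.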

How the results depend on the processing

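The direction of the decitabine change depends on the centring. Centred on bright probes, the median of the 10 genes was -0.68 in KO and -0.32 in WT cells with decitabine and -0.32 for KO against WT cells with decitabine, and 2 genes reached 2-fold in KO cells. With probes within 500 bp of the start, which measure 6 of the 10, it was 0.59 and 0.44 for decitabine in KO and WT cells, and 0.28 for KO against WT cells both with decitabine and untreated. In limma the number of the 10 passing for decitabine was 2 centred on housekeeping genes (Sycp1 and Slc25a31), 5 centred on bright probes, 4 centred on all probes (added after seeing the data), 1 with no filter on input (Sycp3), 1 from the deposited log ratio (Hormad1) and 2 of 6 within 500 bp (Mael and Mov10l1). The shares of all genes passing were 14.5%, 55.2%, 31.5%, 16.2%, 17.9% and 23.3% in the same order. Centred on bright probes Tdrd1 turned to -0.57 (limma adjusted p = 0.0193) and Mov10l1 to -0.50 (limma adjusted p = 0.0385). Over all genes, limma passed 0 for decitabine with loess and 10111 centred on bright probes. For genotype it passed 5 with loess and 2801 with no filter on input, and 0 of the 10 under any of the 10 alternatives. Genes at 2-fold ranged over alternatives from 27 to 2350 for decitabine in KO, 37 to 529 in WT, 18 to 509 for KO against WT with decitabine and 60 to 254 untreated. Values not listed here stayed within the spread between genes, which still let medians near 0 change sign, and the distance of the 10 genes from all genes on an array cannot move with the centring. Where a cause is not given by the construction of an alternative, the cause was not tested. No paired analysis was possible because each group has 1 array, so no replicate number can be a block; the limma fit takes genotype as a term beside treatment. MeDIP signal was well above background at 3.08% to 15.9% of the kept germline probes, which limits every size.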
